A study of Mus musculus with 9 samples.

Results

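Oocyte transcripts were followed through 9 cultures of mouse granulosa cells, the somatic cells that line the ovarian follicle and feed the egg it encloses. The genes were Zp1, Zp2, Zp3, Gdf9, Bmp15, Oosp1, Nlrp5, Dazl, Ddx4 and Npm2, chosen as known oocyte genes, and every probe set annotated to exactly 1 of them was taken. This gave 12 probe sets of 9 genes, of 45037 probe sets and 18193 named genes on the array, and Npm2 was not analysed here. The cultures labelled WNT4, Cre and GFP (3 arrays each) were infected for 24 h with an adenovirus that carries WNT4, Cre recombinase or enhanced GFP, the last as control. All cells came from mice 20 to 26 days old and of various genotypes, 48 h after equine chorionic gonadotrophin. Cells were released by puncturing follicles with a needle, left to attach overnight in medium with 1% fetal bovine serum and infected in serum-free medium at a multiplicity of about 50. The sources used here do not give the genotype behind each array. The labels call the replicates biological but name no separate animals, and a p-value here reflects only how these samples vary among themselves, which may be technical. Each value is on the log2 scale of the RMA method, so that 1 unit is a doubling.

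The oocyte grows inside the follicle and surrounds itself with the zona pellucida, a glycoprotein coat that its own zona genes encode. It also secretes growth factors that act on the granulosa cells around it, and it stores maternal transcripts and proteins for the first divisions of the embryo. Granulosa cells do not make the zona in the mouse, so zona and other oocyte transcripts in a granulosa culture are a usual sign of oocytes or oocyte RNA in the sample. In these bulk samples, a smaller number of oocytes and less RNA in each oocyte cannot be told apart. FIGLA, a basic helix-loop-helix factor of the oocyte, binds E-boxes in mouse zona promoters, and an E-box has the letters CANNTG, which read alike on both strands.

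The promoter table from RefSeq (build GRCm38.p6) held windows for 6 of the genes. Those of Zp3 and Oosp1 are shown because they held the most E-boxes, so their counts are high by choice. Whether E-boxes go with the array pattern was not tested. Each run gives the 250 bases before the annotated start site, 5′ to 3′ on the gene's strand, with E-boxes in capitals. Zp3 lies on the + strand at chr5:135979855-135980104 and Oosp1 on the - strand at chr19:11691052-11691301.
Zp3: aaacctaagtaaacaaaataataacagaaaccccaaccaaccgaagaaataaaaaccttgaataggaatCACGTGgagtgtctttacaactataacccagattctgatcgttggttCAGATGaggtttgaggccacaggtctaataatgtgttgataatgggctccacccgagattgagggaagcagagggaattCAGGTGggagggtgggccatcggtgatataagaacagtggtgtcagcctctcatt
Oosp1: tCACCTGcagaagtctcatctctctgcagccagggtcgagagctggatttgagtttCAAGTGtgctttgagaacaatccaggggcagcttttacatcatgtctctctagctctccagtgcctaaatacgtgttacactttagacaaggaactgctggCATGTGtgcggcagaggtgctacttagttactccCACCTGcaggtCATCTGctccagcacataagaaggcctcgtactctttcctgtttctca
The Zp3 window held 3 E-boxes, whose first bases lie at positions -181, -134 and -55 from the start site. The Oosp1 window held 5, at -249, -194, -93, -59 and -48. Of all 32851 promoter windows of this length, 66.2% held at least 1 E-box, 12.2% held at least 3 and 1.15% held at least 5. The windows of Bmp15, Dazl and Ddx4 held 1 E-box each, and both windows of Nlrp5 held 2. The letters TAATTG, a core of the element bound by the oocyte homeobox factor NOBOX, were searched on both strands and were in 0 of the 7 windows, against 7.17% of all windows. A match is a description of the letters and not a site.

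The arrays did not settle the virus labels, so groups are called here by their labels. Wnt4 averaged 9.34 ± 0.48 on the arrays labelled WNT4, 10.63 ± 0.55 on those labelled Cre and 9.41 ± 0.45 on those labelled GFP (SD, n = 3) by its brighter probe set. By the dimmer one it averaged 9.29 ± 0.82 on WNT4 arrays, 9.62 ± 0.51 on Cre arrays and 8.32 ± 0.78 on GFP arrays. Of the 10 granulosa markers, Inha, the inhibin alpha subunit, averaged 13.42 on WNT4 arrays, 13.21 on Cre arrays and 13.36 on GFP arrays. Foxl2, a granulosa transcription factor, averaged 10.24, 10.28 and 10.56 on the same groups. Amh, the anti-Müllerian hormone, averaged 5.93, 5.92 and 6.12 on the same groups, and the median of all tested probe sets on an array lay between 5.44 and 5.54. These 3 were named after their values were seen. Whether either probe set of Wnt4 reads the transcript made by the virus is unknown here. Array WNT4 1 stood apart: it had the highest upper quartile (8.003, against 7.68 to 7.87 on the other arrays) and the lowest array weight (0.67, against 0.79 to 1.52). It also had the largest differences between 3′ and 5′ control probes (1.38 for beta-actin and 2.17 for Gapdh on the log2 scale, against 0.98 to 1.30 and 0.95 to 1.88), a sign of RNA or cRNA length. Median differences over the 9 oocyte genes that rest on WNT4 1 are therefore given with and without it.

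Oocyte transcripts varied widely between arrays of 1 virus, and the virus groups overlapped. Taken as the median over the 9 genes relative to the mean of the GFP arrays, the oocyte level was 1.77, 0.09 and -0.04 on WNT4 1, 2 and 3. The Cre arrays gave 0.97, 0.53 and -0.21, and the values were -0.29, 0.71 and -0.32 on GFP 1, 2 and 3. Every virus thus had at least 1 array with a high oocyte level and at least 1 with a low level. The group means of this measure were 0.61 ± 1.01 for WNT4, 0.43 ± 0.60 for Cre and 0.03 ± 0.59 for GFP (SD, n = 3).

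**Figure D1:**
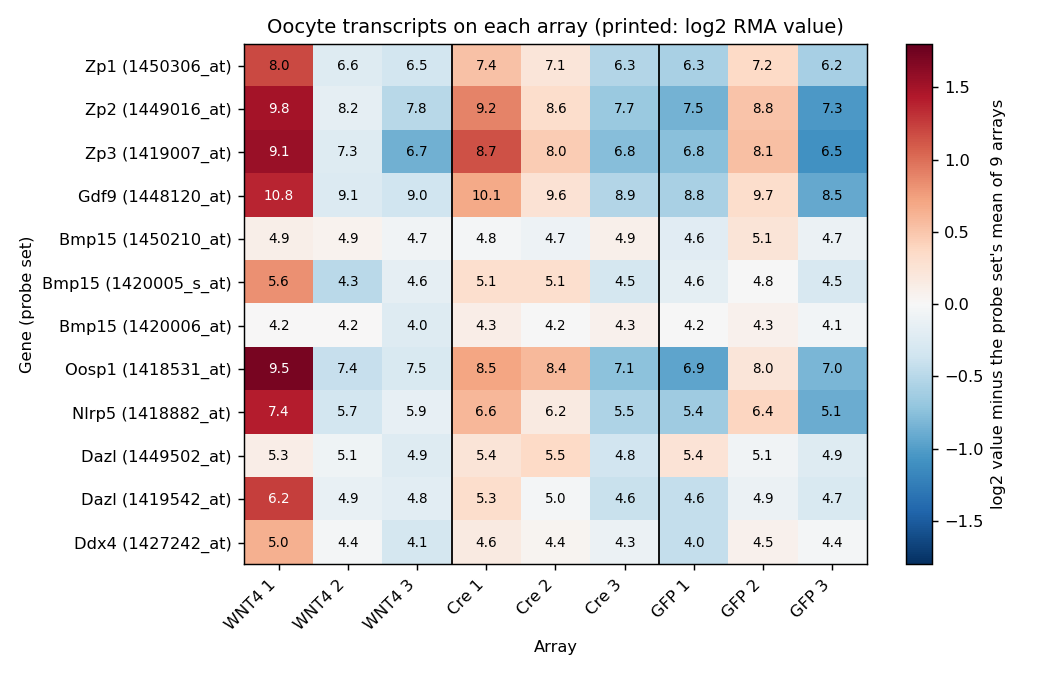
Heat map of the 12 oocyte probe sets (rows) on the 9 arrays (columns, grouped by the virus on the label). Colour is the log2 value minus the mean of that probe set over the 9 arrays, and the printed number is the log2 value. The zona genes, Gdf9, Oosp1 and Nlrp5 are red on WNT4 1, Cre 1, Cre 2 and GFP 2, and 2 of the Bmp15 probe sets stay pale throughout.

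The zona genes showed this pattern in all 3 members. Zp1, whose protein cross-links zona filaments, read 8.03, 6.60 and 6.51 on WNT4 1, 2 and 3, 7.37, 7.05 and 6.31 on Cre 1, 2 and 3, and 6.25, 7.20 and 6.24 on GFP 1, 2 and 3. Zp2, whose protein is bound by sperm in the mouse, read 9.82, 8.15 and 7.82 on the WNT4 arrays, 9.21, 8.64 and 7.65 on the Cre arrays, and 7.46, 8.84 and 7.29 on the GFP arrays in the same order. Both were highest on WNT4 1, then on Cre 1, GFP 2 and Cre 2, and lowest on GFP 3. Zp3, which pairs with ZP2 in the filaments of the coat, read 9.12, 7.32 and 6.70 on WNT4 1, 2 and 3, 8.71, 8.02 and 6.79 on Cre 1, 2 and 3, and 6.81, 8.10 and 6.48 on GFP 1, 2 and 3. Its highest array stood 6.23-fold above its lowest, against 5.80-fold for Zp2 and 3.44-fold for Zp1. In all 3 genes the values of each virus overlapped those of both others.

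Secreted factors of the oocyte followed the zona genes where their probe sets were bright. Gdf9, a growth factor of the TGF-beta family that the oocyte sends to granulosa cells, read 10.76, 9.14 and 9.03 on WNT4 1, 2 and 3, 10.07, 9.64 and 8.85 on Cre 1, 2 and 3, and 8.80, 9.70 and 8.47 on GFP 1, 2 and 3. Oosp1, a small protein secreted by oocytes, read 9.53, 7.40 and 7.54 on the WNT4 arrays, 8.54, 8.40 and 7.08 on the Cre arrays, and 6.86, 8.04 and 7.002 on the GFP arrays. Gdf9 had the array order of Zp1 and Zp2 throughout, while Oosp1 had Cre 2 above GFP 2 and its lowest value on GFP 1. The virus groups overlapped for both genes.

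Bmp15, the partner of Gdf9 in signalling to granulosa cells, gave 3 dim probe sets that disagreed. Probe set 1420005_s_at read 5.62, 4.31 and 4.63 on WNT4 1, 2 and 3, 5.10, 5.10 and 4.48 on Cre 1, 2 and 3, and 4.62, 4.79 and 4.50 on GFP 1, 2 and 3. The other 2, 1450210_at and 1420006_at, ranged by only 0.44 and 0.36 over all 9 arrays and were highest on GFP 2 and on Cre 1. Only the first of the 3 thus had WNT4 1, Cre 1, Cre 2 and GFP 2 as its 4 highest arrays. Counts over genes read Bmp15 from 1450210_at, whose mean was 4.82 against 4.80 for 1420005_s_at.

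Nlrp5, a maternal-effect gene whose protein belongs to the subcortical maternal complex of the egg, read 7.44, 5.70 and 5.88 on WNT4 1, 2 and 3, 6.62, 6.18 and 5.47 on Cre 1, 2 and 3, and 5.39, 6.41 and 5.13 on GFP 1, 2 and 3. Its highest array was 4.94-fold above its lowest. It shared its 4 highest arrays with the zona genes.

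The general germ cell genes were dim and moved less than the zona genes, though 1 probe set of Dazl ranged by 1.68, against 1.78 for Zp1. Dazl, an RNA-binding protein of germ cells of both sexes, read 6.24, 4.86 and 4.80 on WNT4 1, 2 and 3 by probe set 1419542_at, 5.31, 4.96 and 4.60 on Cre 1, 2 and 3, and 4.56, 4.89 and 4.71 on GFP 1, 2 and 3. Its other probe set, 1449502_at, ranged by 0.71 and was highest on Cre 2 and then on GFP 1, so the probe sets of Dazl disagreed. Counts over genes read Dazl from 1449502_at, whose mean was 5.14 against 4.99 for 1419542_at. Ddx4, the germ cell RNA helicase also called Vasa, read 5.04, 4.35 and 4.08 on the WNT4 arrays, 4.55, 4.44 and 4.28 on the Cre arrays, and 3.97, 4.47 and 4.35 on the GFP arrays. Ddx4 spanned 2.10-fold and had WNT4 1 and Cre 1 first, as the zona genes did.

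Over all 12 probe sets, WNT4 1 was the highest array for 9. It was among the 4 highest for 11, as were Cre 1 and GFP 2, and Cre 2 was for 10. GFP 3 was the lowest array for 5 and GFP 1 for 4. Read from 1 probe set each, 7 of 9 genes were highest on WNT4 1, against 25.8% of all genes. A description of the 6 genes with a mean of at least 6 (Zp1, Zp2, Zp3, Gdf9, Oosp1 and Nlrp5) follows, in which Nlrp5, with a mean of 6.02, would fall to 5.85 and be left out without WNT4 1. Relative to each gene's own mean, the 6 genes averaged 1.46 on WNT4 1, -0.27 on WNT4 2 and -0.41 on WNT4 3. They averaged 0.76, 0.33 and -0.63 on Cre 1, 2 and 3, and -0.73, 0.39 and -0.89 on GFP 1, 2 and 3. The genes lay close together on each array, with an SD over the 6 genes of 0.09 on WNT4 2 up to 0.25 on WNT4 3. Zp3 departed most on WNT4 3, where it lay 0.86 below its mean and the 6 genes had a median of -0.34. The levels of Cre 2 and GFP 2 (0.33 and 0.39) differed by less than this spread over genes.

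**Figure D2:**
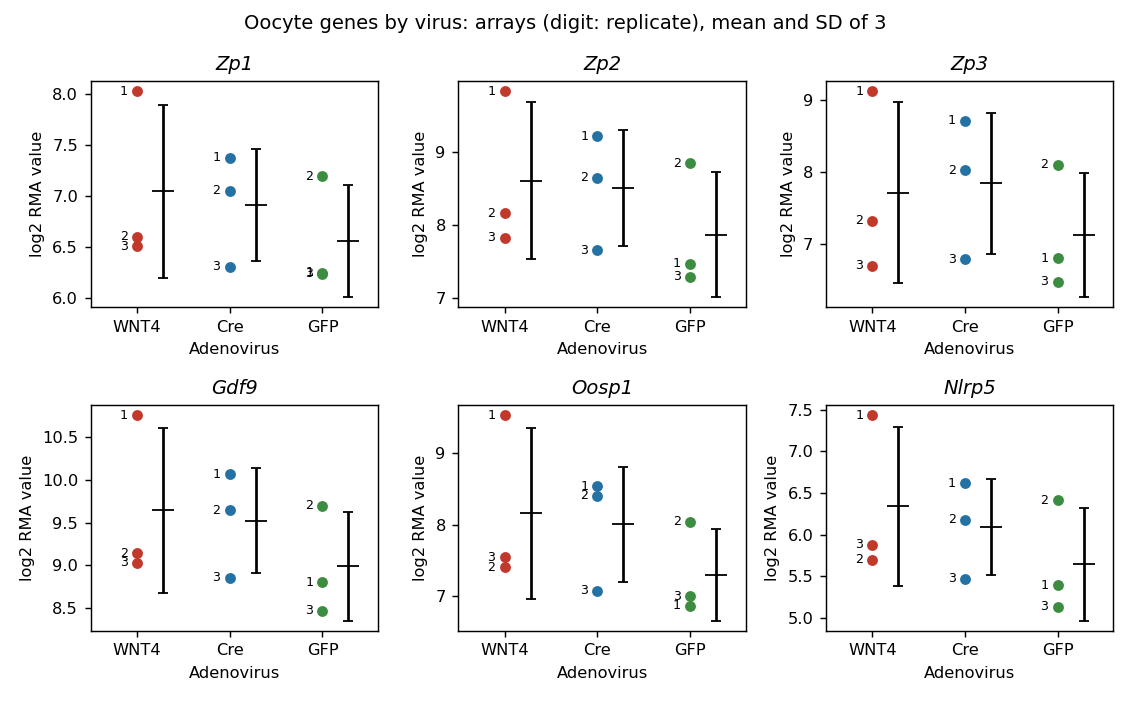
Log2 values of the 6 oocyte genes with a mean of at least 6, by virus. Coloured points are arrays with their replicate number, and the dash with its bar beside them is the mean ± SD of 3 arrays. In each panel WNT4 1 is at the top, the virus groups overlap, and the bars of WNT4, Cre and GFP cover one another.

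These transcripts were set against the viruses to find whether the label went with the oocyte level. WNT4 and GFP arrays overlapped for all 12 probe sets, and 0 of 12 differed in limma's test adjusted over all probe sets, where 7 of 45037 (0.0155%) did. At an unadjusted p under 0.05, 0 of 12 differed, against 13% of all probe sets, and 14.8% of all probe sets had groups that did not overlap. Fitted differences were above 0 in 10 of 12, against 49.6% of all probe sets. Oosp1 averaged 8.16 ± 1.19 with WNT4 and 7.30 ± 0.64 with GFP (SD, n = 3), a difference of 0.86 ± 0.62 (SE, 95% interval -0.54 to 2.26, adjusted p = 0.602). Zp3 averaged 7.71 ± 1.25 with WNT4 and 7.13 ± 0.86 with GFP, a difference of 0.58 ± 0.71 (interval -1.02 to 2.19, adjusted p = 0.774). Gdf9 averaged 9.64 ± 0.97 with WNT4 and 8.99 ± 0.64 with GFP, a difference of 0.65 ± 0.52 (interval -0.52 to 1.83). Without WNT4 1 the differences were 0.17 for Oosp1 and 0.10 for Gdf9, shifts larger than their SE, and -0.12 for Zp3. The median difference over the 9 genes was 0.58, beside -0.0016 over all probe sets. It was 0.02 without WNT4 1, 0.92 without WNT4 3, 1.0083 without GFP 2 and 0.32 without GFP 3, so each of these arrays alone moved it by more than 1.5 times. A difference of either sign remains within every one of these intervals.

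Cre and GFP arrays overlapped for all 12 probe sets as well, where 6.02% of all probe sets did not overlap, and 0 of 12 were called, as were 0 of 45037 (0%). At an unadjusted p under 0.05, 0 of 12 differed, against 2.23% of all probe sets. Zp3 averaged 7.84 ± 0.97 with Cre and 7.13 ± 0.86 with GFP (SD, n = 3), a difference of 0.71 ± 0.71 (SE, interval -0.89 to 2.31, adjusted p = 1.00). Oosp1 averaged 8.004 ± 0.80 with Cre and 7.30 ± 0.64 with GFP, a difference of 0.70 ± 0.62. Fitted differences were above 0 in 12 of 12 probe sets, where 44.7% of all probe sets were, and these 12 were read on the same arrays. The median over the 9 genes was 0.45, beside -0.02 over all probe sets, and it moved to 0.18 without Cre 1, 0.75 without Cre 3, 0.83 without GFP 2 and 0.21 without GFP 3. WNT4 and Cre are both set against the same GFP arrays, so their differences from GFP are not independent.

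WNT4 and Cre arrays lay closest in group mean, and 0 of 12 probe sets were called, as were 0 of 45037 (0%), with 0 of 12 against 6.23% at an unadjusted p under 0.05. Groups overlapped for all 12, where 8.23% of all probe sets did not, and 8 of 12 fitted differences were above 0, against 56.8%. Zp2 averaged 8.60 ± 1.07 with WNT4 and 8.5002 ± 0.79 with Cre (SD, n = 3), a difference of 0.10 ± 0.62 (SE, interval -1.31 to 1.51, adjusted p = 0.999). Nlrp5 averaged 6.34 ± 0.95 with WNT4 and 6.09 ± 0.58 with Cre, a difference of 0.25 ± 0.51. The median over the 9 genes was 0.10, beside 0.02 over all probe sets. It changed sign to -0.36 without WNT4 1 and to -0.21 without Cre 3, and was 0.32 without WNT4 2, 0.40 without WNT4 3, 0.37 without Cre 1 and 0.17 without Cre 2.

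**Figure D3:**
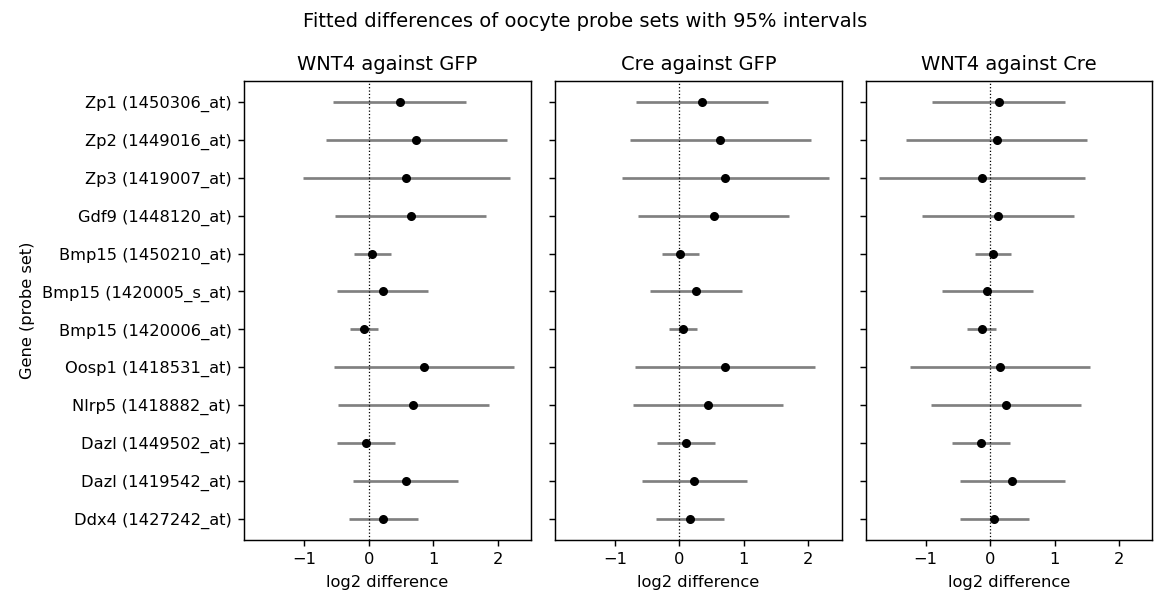
Fitted log2 differences of the 12 oocyte probe sets in the 3 comparisons, with 95% intervals from limma's fit to all 9 arrays (points: differences, first-named virus minus second). All 36 intervals cross 0, and those of Zp2, Zp3 and Oosp1 are the widest.

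The widest range of single arrays within 1 virus exceeded the range of the group means for all 9 genes, read from 1 probe set each. Group means ranged by a median of 0.65 over the genes, whereas the widest range within 1 virus had a median of 1.73. The same was true of 93.3% of all genes, so this holds for most of the array. Means vary less than the single arrays they average, so this comparison cannot say which source of spread is larger. The size of the array-to-array range was larger than in most genes: 7 of 9 genes ranged by more than 1, against 19.3% of all genes. All 7 were highest on WNT4 1, as were 44.4% of all genes with such a range, and ranges without that array were not computed. The share over all genes also includes dim ones, whose differences RMA makes small. The same 4 arrays, WNT4 1, Cre 1, Cre 2 and GFP 2, were the highest in 7 of 9 genes, against 0.956% of all 18193 genes, a comparison chosen after the values were seen.

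Other oocyte genes, from a list that leaves out the members, were measured beside them. Of 79 listed, 68 were on the array with 1 symbol. Of these 68, 0 rose or fell past limma's test in any comparison, and the lowest adjusted p for WNT4 against GFP was 0.179. At an unadjusted p under 0.05, 2 of 68 differed between WNT4 and GFP, against 13% of all probe sets, 0 between Cre and GFP, against 2.23%, and 2 between WNT4 and Cre, against 6.23%. The list's median differences were 0.35 for WNT4 against GFP, 0.17 for Cre against GFP and 0.08 for WNT4 against Cre. Beside them, all probe sets had medians of -0.0016, -0.02 and 0.02. Relative to the mean of the GFP arrays, the list's median was 0.86 on WNT4 1 and -0.01 on both WNT4 2 and WNT4 3. The list's differences that involve WNT4 thus lean on WNT4 1, and they were not computed without it. Of the list, 39 of 68 genes ranged by more than 1 over the arrays, and 36 of these 39 were highest on WNT4 1, where 44.4% of all genes with such a range were. The exceptions, named after their values were seen, were Khdc3, Omt2a and Tdrd5. The 4 arrays that led for the members also led for 25 of the 68.

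Named by the width of their range, 7 of 8 genes of that list were highest on WNT4 1. Fbxw24, an F-box protein gene, read 9.52, 7.05 and 7.18 on WNT4 1, 2 and 3, 8.55, 8.14 and 6.64 on Cre 1, 2 and 3, and 6.81, 8.18 and 6.57 on GFP 1, 2 and 3. Obox2, an oocyte homeobox gene of a family of close copies, ranged by 2.64, and Oosp3, a relative of Oosp1, by 2.55. Bcl2l10, an apoptosis regulator of the oocyte, ranged by 2.54, and Nlrp14, a relative of Nlrp5, by 2.52. Gtsf1, a germ cell factor of the piRNA pathway, and Nlrp4f, another relative of Nlrp5, both ranged by 2.46. All 7 were lowest on GFP 1 or GFP 3.

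Tdrd5, a Tudor-domain gene of the piRNA pathway, was the exception. It read 8.04, 8.08 and 7.16 on WNT4 1, 2 and 3, 9.42, 9.41 and 7.58 on Cre 1, 2 and 3, and 9.46, 10.12 and 10.10 on GFP 1, 2 and 3. Both the WNT4 and the Cre arrays lay below all 3 GFP arrays. For Cre the gap was narrow: Cre 1 and Cre 2, at 9.42 and 9.41, lay just below GFP 1 at 9.46, and only Cre 3 was far lower. The difference from GFP was -2.13 ± 0.49 (SE, adjusted p = 0.179) for WNT4 and -1.09 ± 0.49 (adjusted p = 1.00) for Cre, and neither passed limma's test.

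Values of a pair of transcription factor genes from the same list are given here because their proteins act on oocyte promoters. Nobox, a homeobox activator of oocyte genes, read 6.76, 6.01 and 5.80 on WNT4 1, 2 and 3, 6.43, 5.92 and 5.59 on Cre 1, 2 and 3, and 5.85, 5.997 and 5.61 on GFP 1, 2 and 3. Figla, the activator of the zona genes, ranged by 0.78, with its highest value of 5.64 on WNT4 1. Figla did not have the other high arrays of the zona genes. Its second highest value was 5.34 on GFP 1 and its lowest was 4.86 on GFP 2, with 5.16 on Cre 1 and 4.99 on Cre 2. Apart from WNT4 1, its values lay below 5.44, the lowest array median, so Figla was dim. Both genes were chosen for mention after their values were seen.

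Markers of other cells were read on the same arrays, each as the list's median relative to the mean of the GFP arrays. Genes that are not made in this tissue were mostly dim and stayed flat: 11 sperm genes lay between -0.16 and 0.09 and 11 genes of other organs between -0.19 and 0.15 over the 9 arrays. Not all were dim: Prm1 of the sperm list averaged 6.77 and Ins2 of other organs 6.66, above the 6.02 of Nlrp5. A value of this size can thus be read for a gene not made in the tissue. Granulosa markers (10 genes) lay between -0.37 and 0.06, with their lowest values on Cre 3 and WNT4 3. The widest of these were Odf1 and Tnp1 (range 0.79 each) for sperm, Myh6 and Ins2 (0.82 and 0.65) for other organs, and Esr2 and Hsd17b1 (1.92 and 1.45), both highest on GFP 2, for granulosa cells. Endothelial markers (5 genes) lay between -0.13 and 0.04, surface epithelial markers (6) between -0.13 and 0.19 and erythrocyte markers (2 of 4 listed) between -0.15 and 0.21. Their widest members were Tie1 and Kdr, Krt19 and Krt8, and Alas2 and Slc4a1. The oocyte genes, at -0.32 to 1.77, spanned more than any of these lists. However, the sperm, other-organ, endothelial and erythrocyte lists averaged only 5.05 to 5.44 on an array, against 6.06 to 7.77 for the oocyte genes. RMA makes differences of dim sets small, so the flatness of these dim lists is no contrast to brighter genes.

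**Figure D4:**
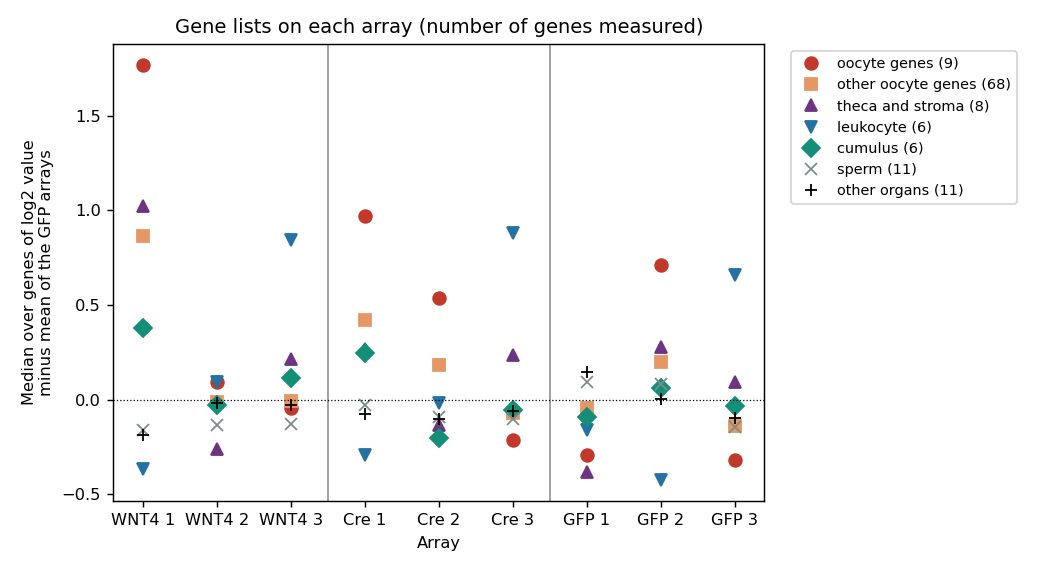
Median level of 7 gene lists on each array, as the log2 value minus the mean of the GFP arrays. The oocyte genes reach 1.77 on WNT4 1, 0.97 on Cre 1 and 0.71 on GFP 2, sperm and other-organ genes stay between -0.19 and 0.15, and leukocyte genes are high on the arrays numbered 3.

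A few of these lists moved with the oocyte genes on some arrays. Theca and stroma markers (8 of 9 listed) stood at 1.02 on WNT4 1, with -0.38 to 0.28 on the other arrays, and on Cre 1 and GFP 2 they stood at 0.27 and 0.28. Dcn encodes decorin, a proteoglycan of connective tissue, and its value was 9.50 on WNT4 1 and 6.41 to 7.10 elsewhere. Lum, for the related lumican, was at 7.33 on WNT4 1 and 4.65 to 4.91 elsewhere. The list did not move as one: 6 of its 8 genes were highest on WNT4 1, and the other 2, Acta2 and Col1a1, were lowest there. On GFP 2, 7 of 8 lay above the mean of the GFP arrays, but so did 7 of 8 on GFP 3, where the oocyte level was lowest. Col3a1, a fibrillar collagen gene, read 9.87 on GFP 2, second to 10.23 on WNT4 1. The list stood at 0.22 on WNT4 3, 0.24 on Cre 3 and -0.13 on Cre 2, so it did not follow the oocyte level on these arrays. On WNT4 2 and GFP 1 it stood at -0.26 and -0.38. Cumulus markers (6 of 7 listed, of which Amh is also on the granulosa list) stood at 0.38 on WNT4 1, 0.25 on Cre 1, -0.20 on Cre 2 and 0.06 on GFP 2. Slc38a3, an amino acid transporter of cumulus cells, read 7.05, 6.05 and 5.92 on WNT4 1, 2 and 3, 7.07, 6.43 and 6.28 on Cre 1, 2 and 3, and 6.53, 6.99 and 6.46 on GFP 1, 2 and 3. Leukocyte markers (6 genes) ran the other way on the arrays numbered 3, at 0.84 on WNT4 3, 0.88 on Cre 3 and 0.66 on GFP 3. Csf1r, the macrophage growth factor receptor, and Cd68 were the widest leukocyte markers, both highest on Cre 3. Ptgs2, which makes prostaglandins, was the widest cumulus marker and highest on WNT4 3, at 7.99. On the arrays numbered 3 the oocyte level was -0.04, -0.21 and -0.32. Of the 10 lists beside the members, 0 genes in any passed limma's adjusted test. At an unadjusted p under 0.05, 2 of 10 granulosa genes and 1 of 11 sperm genes differed between WNT4 and GFP, against 13% of all probe sets. Between Cre and GFP 2 of 10 granulosa genes did (Foxl2 and Amh, which is on the cumulus list too), against 2.23%. Between WNT4 and Cre 0 genes of these lists did, against 6.23%. The other oocyte genes are left aside in these counts. The part of these cells and of RNA quality in the oocyte levels was not tested.

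The genes nearest to the oocyte pattern outside both lists were found by the root mean square difference between profiles over the 9 arrays, each centred on its own mean. Of 18116 genes the nearest was Oas1e, at 0.15 on the log2 scale, followed by Oas1c, both of the mouse Oas1 family of 2′-5′ oligoadenylate synthetase-like genes. Klf17, a Krüppel-like factor gene, Cpsf4l and Esrp1, an epithelial splicing regulator, came next. Pla2g4c, a phospholipase, Mbl2, a mannose-binding lectin, Smagp, Khdc1a and C86187 completed the 10, the last at 0.20. Oas1c read 7.84, 6.24 and 6.18 on WNT4 1, 2 and 3, 6.89, 6.96 and 6.01 on Cre 1, 2 and 3, and 6.01, 6.55 and 5.62 on GFP 1, 2 and 3. It had the same 4 highest arrays as the zona genes, with Cre 2 in second place. Genes were picked here for their nearness to the pattern, so shared high arrays are no separate result.

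Arrays Cre 1 and Cre 2 differed in which oocyte genes were the higher. Cre 1 lay above Cre 2 for all 6 bright members, from 0.14 for Oosp1 to 0.69 for Zp3. Among the 39 other oocyte genes with a range over 1, 27 were higher on Cre 1 and the differences spread from -1.05 to 0.86. Padi6 and Ooep, both linked to the cytoplasmic lattices and maternal complex of the egg, differed by 0.86 and 0.82, Gja4, the connexin of oocyte gap junctions, by 0.78 and Dppa3, a maternal factor that protects imprints, by 0.77. Omt2a read 4.45 on Cre 1 and 5.498 on Cre 2, Nlrp4f 6.82 on Cre 1 and 7.31 on Cre 2, and Obox2 8.64 on Cre 1 and 8.92 on Cre 2. These are differences between 2 single arrays of the same virus, with no replicate check, and Padi6, Ooep, Gja4, Dppa3 and Omt2a were chosen after their values were seen.

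**Figure D5:**
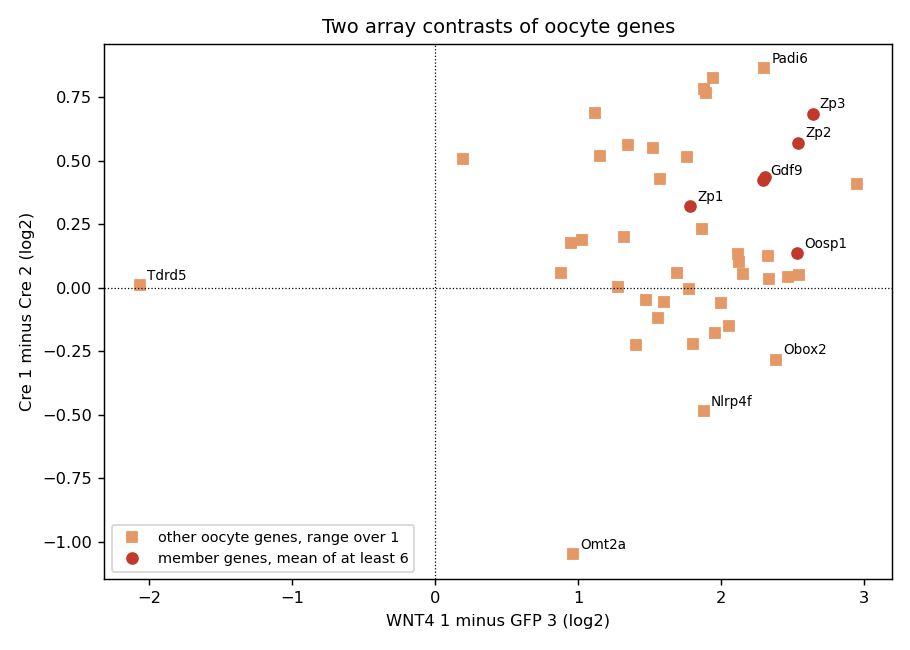
Differences between single arrays for oocyte genes: WNT4 1 minus GFP 3 across and Cre 1 minus Cre 2 upwards, both in log2 units, for 6 members (circles) and 39 other oocyte genes with a range over 1 (squares). The members lie at 1.78 or further right and at 0.14 or above, Tdrd5 lies far to the left, and Omt2a and Nlrp4f lie below 0.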

How the data were processed

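Total RNA of 9 granulosa cultures was hybridised to 1-colour Affymetrix mouse expression arrays. The deposited values are log2 values. The submitters' processing notes name RMA as the authors' method, with no version. The log2 scale was read from the values (3.46 to 15.28). That method scales the arrays to each other and merges the probes of a set, and it makes differences of dim sets small. Upper quartiles of the arrays still ran from 7.68 to 8.003. No 2 arrays shared more than 4.52% equal values.

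Of 45101 probe sets, 64 controls were left out. Symbols came from the platform annotation: 34945 probe sets had 1, 932 several and 9160 none. Of the 34945, 34741 were updated by Entrez ID through RefSeq (GRCm38.p6). For gene lists, the brightest set by mean stood for a gene, and values of different probe sets were not compared with each other.

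All 9 arrays were fitted by limma 3.58.1 under R 4.3.3 (functions lmFit and eBayes, no covariate, two-sided, 6 residual and 2.8 prior degrees of freedom), with Benjamini-Hochberg adjustment over 45037 probe sets and a threshold of 0.05. The procedure was tested on simulated data. The members and lists were chosen with earlier results of these data known. Named genes were every member probe set, the 8 other oocyte genes of widest range, the 2 widest of each other list and the 10 nearest profiles. Any other gene was named after its values were seen.

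No label says that a replicate number stands for 1 animal or day. Same-numbered arrays departed from their group means with correlations of 0.21, 0.24 and 0.77 between WNT4 and Cre, of -0.08, 0.01 and 0.35 between WNT4 and GFP and of -0.04, -0.31 and 0.31 between Cre and GFP, across probe sets. By the rule that all 3 exceed 0.1, the numbers would be paired between WNT4 and Cre but in neither other comparison, and no label pairs them. The 3 departures within a group sum to 0, so the 3 correlations of a comparison are not separate support for pairing. Number 3 had the highest correlation in all 3 comparisons. Alternatives were this number as a block, the arrays compared alone, 3 scalings, a filter at a mean of 6, averaging all sets of a gene, an intensity trend, array weights and leaving out each array. The number of arrays limits the precision.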

Additional observations from a re-analysis of the deposited data

How the results depend on the processing

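No oocyte probe set was called in any comparison under any alternative tried. With the replicate number as a block, 0 of 12 were called in each comparison. The lowest adjusted p of limma's test was then 0.43 for WNT4 against GFP, 0.9999 for Cre against GFP and 0.84 for WNT4 against Cre. The median differences were 0.58, 0.45 and 0.10 in the same order. A block cannot change these medians, because each number occurs once in each virus. Over the other alternatives with all 9 arrays, the median for WNT4 against GFP ran from 0.27 with array weights to 0.67 with the filter at a mean of 6, and that for Cre against GFP from 0.29 to 0.58 with the same 2 settings. Centring on the 75th percentile gave 0.43 for WNT4 against GFP, where all probe sets together had a median of -0.15, and -0.0036 for WNT4 against Cre. Leaving out each array in turn gave 0.02 to 1.0083 for WNT4 against GFP, 0.18 to 0.83 for Cre against GFP and -0.36 to 0.40 for WNT4 against Cre. The level of WNT4 1 was 1.38 with quantile normalization and 1.87 with that filter, and it was the highest under all 5 alternatives. In WNT4 against GFP, Dazl was at -0.04 by 1 probe set and 0.27 by the mean of both, a shift larger than its SD within groups. Without WNT4 1 that comparison gave -0.01 for Zp1 (0.48 with it) and 0.15 for Nlrp5 (0.69 with it), shifts larger than their SE. Under the filter, Bmp15, Dazl and Ddx4 had no value.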
